A study of Mus musculus with 9 samples.

Results

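The 10 genes described here encode components and responders of bone morphogenetic protein (BMP) signalling in mouse embryonic fibroblasts. They are the ligands *Bmp2* and *Bmp4*, the antagonist *Grem1*, the inhibitory SMAD *Smad6*, the inhibitors of DNA binding *Id1*, *Id2*, *Id3* and *Id4*, and the homeobox genes *Msx1* and *Msx2*. They were 10 of 22068 genes in a table of read counts, and all 10 were among the 10100 genes that passed the filter on low values and were tested. The genes were taken by name, and they had been selected on their measured differences between the conditions in these same libraries. Their levels and differences are therefore given as a description, and no result is supported by how many of them passed a threshold.

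Primary fibroblasts of the C57Bl/6 mouse strain at passage 2 were electroporated with plasmids carrying a puromycin resistance gene, in 3 versions. Metatherian CRX was V5-tagged opossum *CRX*, eutherian CRX was V5-tagged human *CRX*, and the control plasmid had no homeobox gene. CRX is a homeodomain transcription factor known for its role in photoreceptors, and the experiment asked how the 2 orthologues differ in their effect on a transcriptome outside the eye. The cells of all 9 libraries, control included, were kept for 5 days in puromycin and had a 48 h recovery. The controls thus share the electroporation, the drug and the recovery. Each condition was sequenced as 3 poly-A RNA libraries, named here by condition and library number. No source used here says whether the libraries came from separate cell isolates, so p-values measure the spread between these libraries, which may be technical.

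BMP ligands bind paired type I and type II serine kinase receptors, which phosphorylate SMAD1, SMAD5 and SMAD9. These enter the nucleus with SMAD4 and act on target genes, of which the *Id* genes, *Msx* genes and *Smad6* are among the best known. ID proteins lack a DNA-binding basic region and hold other basic helix-loop-helix proteins away from DNA, MSX proteins are homeodomain repressors of mesenchymal differentiation, and SMAD6 and gremlin limit the signal inside and outside the cell. In connective tissue the pathway is known for its part in skeletal and limb patterning.

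The libraries held between 54145701 and 94699657 assigned counts. The mouse *Crx* row held 627, 995 and 313 counts in the 3 eutherian CRX libraries, 0 in each control library, and 4, 0 and 0 in the metatherian CRX libraries. The upper limit behind a count of 0 is 3 counts, and the opossum plasmid itself was not counted here, so these counts do not check the metatherian label. Of 8 fibroblast markers, all 8 exceeded 1 FPKM (fragments per kilobase of exon, scaled to library size, computed here from the counts) in at least 1 library. Their summed level ran from 6876 to 8185 FPKM in control, from 3075 to 6345 under eutherian CRX and from 3078 to 5604 under metatherian CRX. Under metatherian CRX, *Col1a1*, *Col1a2*, *Col3a1* and *Pdgfrb* lay below every control library. *Pdgfra*, at 36.5, 45.0 and 48.1 FPKM, lay above all of them (23.5, 28.5 and 35.4). The other fibroblast markers, *Vim* among them, overlapped control. The sum of 5 smooth muscle markers ran from 1103 to 1859 FPKM in control, from 158 to 809 under eutherian CRX and from 281 to 522 under metatherian CRX. The sum of 6 osteoblast and chondrocyte markers ran from 22.2 to 23.9, 14.7 to 27.6 and 17.3 to 52.0 FPKM in the same order, with *Bglap*, *Ibsp* and *Alpl* never above 1 FPKM. This sum mixes unlike patterns. *Col2a1* was at 14.2, 11.2 and 7.36 FPKM in control and 39.1, 37.0 and 2.85 under metatherian CRX. *Sox9* was at 7.60, 9.60 and 15.5 in control, 5.82, 6.67 and 23.8 under eutherian CRX and 9.90, 13.5 and 14.0 under metatherian CRX. Of the 5 macrophage markers in the table, *Ptprc* never exceeded 1 FPKM, and the sums were at most 8.89 FPKM in control, 6.13 under eutherian CRX and 4.67 under metatherian CRX. Sums over 5 endothelial and 5 skeletal muscle markers were at most 3.23 and 6.18 FPKM in any library, and those over 5 epithelial and 5 photoreceptor markers were at most 0.389 and 0.473. The part of these marker differences in the results was not tested. In RNA from whole cultures, fewer cells that express a gene and less RNA of that gene per cell cannot be told apart.

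Promoter sequences are shown for the 5 members with a lower fitted level under metatherian CRX at an unadjusted p under 0.05, since most of the description turns on these genes. The RefSeq windows run from 250 bases before to 50 bases after the annotated start site, on GRCm38.p6, and are written 5′ to 3′ on the strand of the gene. Of the 10 genes, 8 had an entry (*Bmp2* and *Id1* had none). Capitals mark matches on either strand to TAATCC (the core read by CRX-like homeodomains), TAATTG (MSX), GGCGCC or GTCTAGAC (SMAD) and CACGTG or CAGCTG (E boxes, read by basic helix-loop-helix proteins).
Msx1: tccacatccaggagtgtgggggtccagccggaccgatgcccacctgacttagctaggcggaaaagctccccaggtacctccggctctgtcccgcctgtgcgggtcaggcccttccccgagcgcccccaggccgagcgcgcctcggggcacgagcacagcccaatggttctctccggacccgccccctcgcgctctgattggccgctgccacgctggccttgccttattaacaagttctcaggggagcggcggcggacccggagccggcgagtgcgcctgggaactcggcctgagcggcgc
Id3: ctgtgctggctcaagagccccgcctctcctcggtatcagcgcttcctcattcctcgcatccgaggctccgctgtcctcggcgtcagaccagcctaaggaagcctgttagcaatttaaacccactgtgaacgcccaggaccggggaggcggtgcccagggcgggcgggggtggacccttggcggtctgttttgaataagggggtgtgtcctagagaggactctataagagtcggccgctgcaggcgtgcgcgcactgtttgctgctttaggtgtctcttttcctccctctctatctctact
Id4: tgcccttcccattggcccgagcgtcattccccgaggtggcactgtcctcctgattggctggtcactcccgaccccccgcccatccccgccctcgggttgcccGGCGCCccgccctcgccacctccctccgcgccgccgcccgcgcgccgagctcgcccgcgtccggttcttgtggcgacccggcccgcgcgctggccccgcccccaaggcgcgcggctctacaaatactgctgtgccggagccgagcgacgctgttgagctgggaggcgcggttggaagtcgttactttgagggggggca
Smad6: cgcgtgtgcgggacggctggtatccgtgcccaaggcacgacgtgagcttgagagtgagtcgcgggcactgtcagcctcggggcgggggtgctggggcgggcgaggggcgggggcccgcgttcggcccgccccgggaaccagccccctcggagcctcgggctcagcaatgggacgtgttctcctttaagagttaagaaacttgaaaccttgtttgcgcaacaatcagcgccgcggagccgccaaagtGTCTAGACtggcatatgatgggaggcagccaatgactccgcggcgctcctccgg
Bmp4: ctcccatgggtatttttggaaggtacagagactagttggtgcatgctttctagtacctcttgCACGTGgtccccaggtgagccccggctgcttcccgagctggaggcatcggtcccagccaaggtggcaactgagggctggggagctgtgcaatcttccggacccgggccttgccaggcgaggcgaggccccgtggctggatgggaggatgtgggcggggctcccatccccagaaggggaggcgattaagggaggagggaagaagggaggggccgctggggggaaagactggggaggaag
The windows are chr5:37824536-37824835 on the minus strand for *Msx1*, chr4:136143572-136143871 on the plus strand for *Id3* and chr13:48260866-48261165 on the plus strand for *Id4*. Those of *Smad6* and *Bmp4* are chr9:64022010-64022309 and chr14:46390620-46390919, both on the minus strand.

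The *Msx1* and *Id3* windows held no match to any of the 6 letter strings. TAATCC and TAATTG were found in 0 of the 8 member windows, against 7.06% and 8% of all 32851 promoters of the same length. GGCGCC stood in the windows of *Grem1*, *Id2* and *Id4*, 3 of 8, and in 11.9% of all promoters. The palindrome GTCTAGAC was in 0.213% of all promoters and in *Smad6* began 4 bases before the start site (position -4) and ran across it. CACGTG occurred at position -188 in *Bmp4* and in 7.15% of all promoters, and CAGCTG occurred in *Id2* and in 16.3%. No 2 matches overlapped in a member window, the GC content of the 8 windows ran from 60% to 73.33%, and a match of letters is not a measured binding site. The annotated start differs by 311 bases from the 5′ end of the counted exons of *Id4*, 70 bases for *Bmp4*, 26 bases for *Smad6* and 140 bases for *Grem1*, and is the same base for *Id2*, *Id3*, *Msx1* and *Msx2*.

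Against control, libraries of metatherian CRX had a lower fitted level of *Msx1*, *Id3*, *Id4*, *Smad6* and *Bmp4*, at 0.328 to 0.468 times the control level, and a higher fitted level of *Bmp2* and *Msx2*, at 4.65 and 1.57 times. None of the 10 genes was called in edgeR's quasi-likelihood test at a Benjamini-Hochberg adjusted p under 0.05, the share over all genes being 0.0297%. At an unadjusted p under 0.05 there were 7, of which 2 were higher and 5 lower, beside 19.5% of all genes. That fit took the library number as a replicate block, and with no replicate block there were 3 (*Id3*, *Id4* and *Msx2*), beside 1317 of 10100 genes. In 2 genes, *Id3* and *Id4*, the 3 metatherian CRX libraries lay wholly below the 3 control libraries, and 23.3% of all genes had groups that did not overlap. The median log2 fold change of the 10 was -0.69, beside -0.008 over all genes tested. DESeq2 on the same genes called 6, namely *Bmp2*, *Bmp4*, *Smad6*, *Id3*, *Id4* and *Msx1*, beside 9.94% of all genes. With edgeR, 6 were called without eutherian CRX library 3, beside 8.83% of all genes, and 5 without metatherian CRX library 3, beside 4.92%. Each other fit with 1 library left out called none. Eutherian CRX library 3 is in neither group of this comparison and enters it only through the shared fit. The counts that hold *Bmp2* are a description for a further reason, since it passed the filter through the CRX groups alone, where it was higher. Since the genes were selected on these comparisons, nothing about BMP genes as a class is read from the counts.

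Under eutherian CRX, *Bmp2* had a fitted level 2.98 times the control level, *Id4* lay at 0.539 times, and *Msx1*, *Id3*, *Smad6* and *Bmp4* at 0.777 to 1.15 times. None of the 10 was called in edgeR's quasi-likelihood test, beside 0.604% of all genes, and DESeq2 called *Bmp2* alone, beside 3.3%. At an unadjusted p under 0.05 there was 1 gene, *Bmp2*, beside 8.56% of all genes, and with no replicate block 0, beside 615 of 10100. *Bmp2* passed the filter through the CRX groups alone, where it was higher, so no test is read from its calls. In 1 gene, *Msx2*, all 3 eutherian CRX libraries exceeded all 3 control libraries, beside 14% of all genes. The median log2 fold change was -0.014 over the 10 and 0.001 over all genes tested.

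Set directly against eutherian CRX, metatherian CRX had lower fitted levels of *Msx1*, *Bmp4*, *Id3* and *Smad6*, at 0.350 to 0.563 times, and a higher level of *Grem1*, at 1.28 times. None was called in edgeR's quasi-likelihood test, where the share over all genes was 0%. At an unadjusted p under 0.05 there were 5, beside 11.5% of all genes, and with no replicate block 1 (*Msx1*), beside 646 of 10100. Groups did not overlap in 1 gene, *Id2*, lower under metatherian CRX, beside 11.5% of all genes. The median was -0.43 over the 10 and -0.005 over all genes tested. DESeq2 called *Bmp4*, *Smad6*, *Id3* and *Msx1*, beside 3.14% of all genes. With edgeR, 4 were called without eutherian CRX library 3, beside 3.47% of all genes, and *Msx1* alone without metatherian CRX library 3, beside 1.48%. Each other fit with 1 library left out called no member. The comparisons share libraries, both of those with control using the same 3 control libraries, so that their values are not independent of each other.

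**Figure D1:**
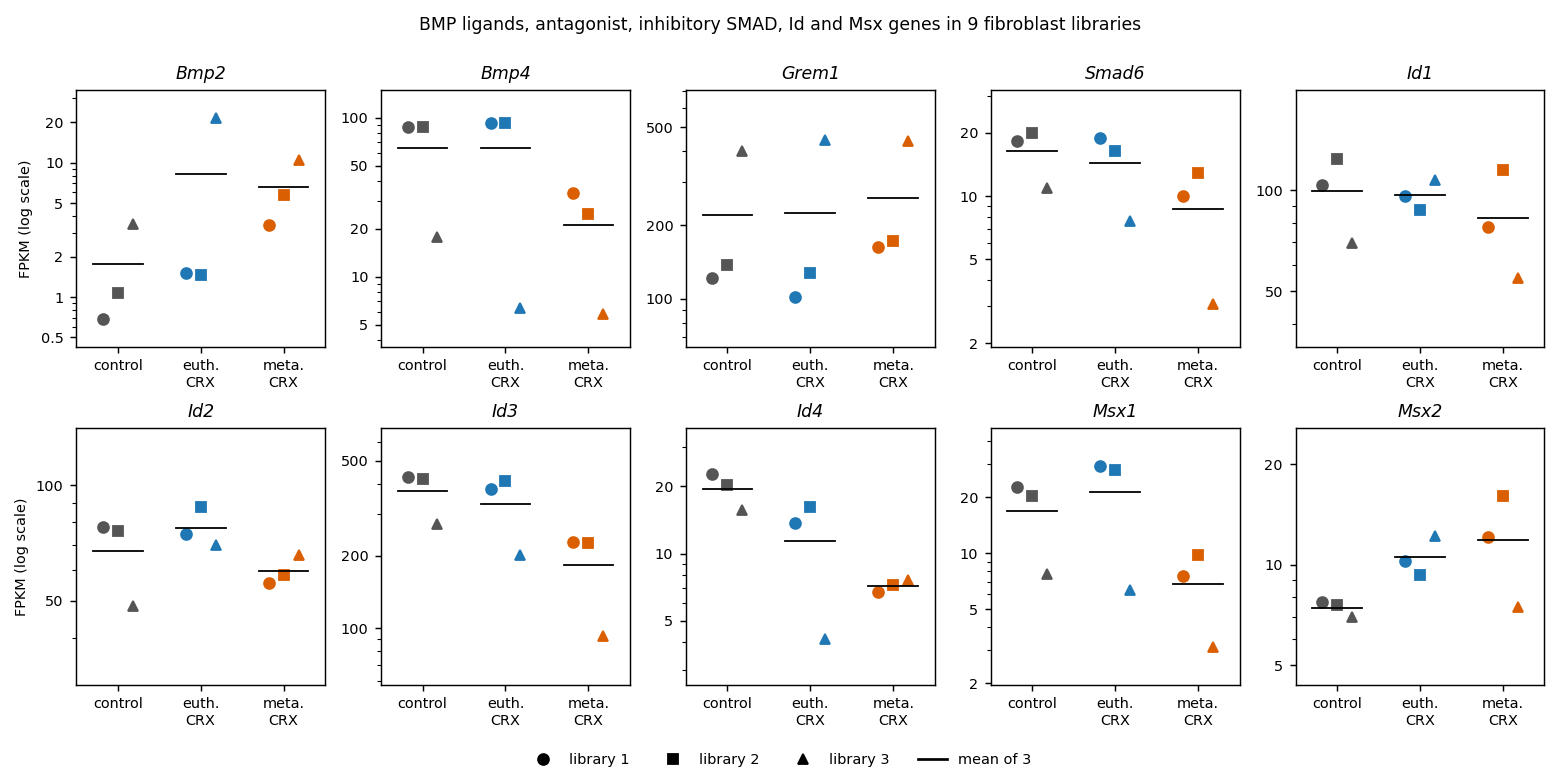
Level of each gene in FPKM (log axis) in the 9 libraries, with the marker shape giving the library number and the line the mean of 3. Library 3 lies lowest in each condition for *Bmp4*, *Smad6*, *Id3* and *Msx1* and highest for *Bmp2* and *Grem1*, and the metatherian CRX libraries of *Id3* and *Id4* lie below all control libraries.

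Of the ligands, *Bmp4*, a ligand of mesenchyme and of early mesoderm, is counted on the minus strand of chr14:46383520-46390599 over 8 exon intervals. Its level was 87.2, 87.4 and 17.8 FPKM in control libraries 1, 2 and 3, 92.6, 93.2 and 6.33 under eutherian CRX and 33.4, 24.7 and 5.80 under metatherian CRX. Metatherian CRX libraries 1 and 2 lay below every library 1 and 2 of the other conditions, but above control library 3, so the groups overlapped. The log2 fold change against control was -1.61 (SE 0.34, 95% interval -2.43 to -0.79), with an adjusted p of 0.0974 in edgeR's quasi-likelihood test. Against eutherian CRX it was -1.25 (SE 0.35), with an edgeR adjusted p of 0.309. Between eutherian CRX and control it was -0.36 (95% interval -1.17 to 0.45, edgeR adjusted p = 0.852), and without eutherian CRX library 3 it was 0.0914. The *Bmp4* exons share 419 bases with the antisense gene *Gm15222* and 89 with *Gm15217* on the other strand, whose reads cannot be told apart here since no strand option of the counting is given.

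*Bmp2*, a ligand known for bone induction, lies at chr2:133552159-133562896 on the plus strand and had the lowest mean FPKM of the 10 genes in each condition. It measured 0.683, 1.07 and 3.51 FPKM in control, 1.50, 1.45 and 21.6 under eutherian CRX and 3.45, 5.79 and 10.5 under metatherian CRX. The control level of 0.683 FPKM rests on 127 counts, and the eutherian CRX level of 21.6 on 5827. Metatherian CRX exceeded the control library of the same number 3 times of 3, while its library 1 lay just below control library 3. Fitted log2 fold changes were 2.22 for metatherian CRX (SE 0.54, edgeR adjusted p = 0.115) and 1.58 for eutherian CRX (SE 0.55, edgeR adjusted p = 0.473). *Bmp2* passed the minimum of 2 FPKM through the CRX groups alone, where it was higher, its control mean being 1.75 FPKM, so these values are a description and not a test. Without eutherian CRX library 3 the second became 0.65, so that 1 library set most of its size. Between the 2 orthologues it was 0.64 (95% interval -0.65 to 1.93), and leaving out 1 library at a time moved it from 0.0857 (without eutherian CRX library 2) to 1.46 (without eutherian CRX library 3, the only one of these fits in which edgeR called it).

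*Grem1* encodes gremlin, a secreted protein that binds BMP2 and BMP4 and keeps them from their receptors, and lies at chr2:113748674-113758788 on the minus strand. Its level was 121, 138 and 399.6 FPKM in control, 102, 128 and 442 under eutherian CRX and 162, 172 and 438 under metatherian CRX. Library 3 was at least 2.62 times the mean of libraries 1 and 2 in every condition, a larger step than any between conditions. Against control the log2 fold change was 0.30 for metatherian CRX (95% interval -0.04 to 0.63, edgeR adjusted p = 0.309) and -0.06 for eutherian CRX (95% interval -0.40 to 0.27). It was 0.36 between the orthologues (SE 0.14, edgeR adjusted p = 0.409), with library 3 of both at nearly one level.

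*Smad6*, whose product blocks receptor-activated SMADs and is itself induced by BMP signalling, lies at chr9:63953076-64022085 on the minus strand. It measured 18.4, 20.0 and 11.0 FPKM in control, 18.9, 16.4 and 7.66 under eutherian CRX and 10.1, 12.9 and 3.07 under metatherian CRX. Each metatherian CRX library was below the control library of its number, and the groups overlapped through control library 3. Its fitted log2 fold change was -1.10 against control (SE 0.24, edgeR adjusted p = 0.0981) and -0.83 against eutherian CRX (SE 0.23, edgeR adjusted p = 0.309). For eutherian CRX against control it was -0.27 (95% interval -0.82 to 0.28).

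The *Id* genes did not share 1 pattern. *Id3*, at chr4:136143822-136145392 on the plus strand, had the highest mean of the 10 in control and under eutherian CRX. Its level was 428, 419.8 and 273 FPKM in control, 382, 411 and 201 under eutherian CRX and 229, 227 and 92.8 under metatherian CRX. All 3 metatherian CRX libraries were below all 3 control libraries, and they overlapped those of eutherian CRX through library 3 of the latter. The log2 fold change was -1.12 against control (SE 0.15, 95% interval -1.48 to -0.76, edgeR adjusted p = 0.0717) and its unadjusted p was the smallest among the 10 genes, at rank 20 of 10100. Against eutherian CRX it was -0.90 (SE 0.15, edgeR adjusted p = 0.238), and for eutherian CRX against control -0.22 (95% interval -0.58 to 0.14).

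*Id4*, at chr13:48261427-48264036 on the plus strand, measured 22.8, 20.2 and 15.6 FPKM in control, 13.7, 16.1 and 4.14 under eutherian CRX and 6.71, 7.26 and 7.59 under metatherian CRX. The metatherian CRX libraries were close together, all below control, and eutherian CRX library 3 was lower than any of them. Fitted log2 fold changes were -1.39 for metatherian CRX (SE 0.38, edgeR adjusted p = 0.132) and -0.89 for eutherian CRX (95% interval -1.79 to 0.01, edgeR adjusted p = 0.589). Without eutherian CRX library 3 the second was -0.43, and without eutherian CRX library 2 it was -1.25. Between the orthologues the interval ran from -1.41 to 0.42. The exons of *Id4* overlap those of *A330033J07Rik* by 82 bases and *Gm49291* by 171 bases on the opposite strand, and these reads cannot be told apart either.

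*Id1*, at chr2:152736237-152737410 on the plus strand, measured 104, 125 and 69.7 FPKM in control, 96.5, 87.5 and 108 under eutherian CRX and 77.7, 115 and 54.7 under metatherian CRX. All 3 groups overlapped, and the largest of its 3 log2 fold changes in size was -0.32, with edgeR adjusted p-values of 0.563 to 0.989. *Id2*, at chr12:25093799-25096092 on the minus strand, measured 77.8, 76.1 and 48.4 FPKM in control, 74.8, 87.9 and 69.8 under eutherian CRX and 55.5, 58.5 and 65.6 under metatherian CRX. Every metatherian CRX library of *Id2* lay below every eutherian CRX library, with a log2 fold change of -0.36 (95% interval -0.78 to 0.07, edgeR adjusted p = 0.5). Against control it was -0.15 (95% interval -0.57 to 0.28), with libraries 1 and 2 below and library 3 above the control library of the same number.

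The *Msx* genes had fitted differences of opposite sign under metatherian CRX. *Msx1*, which is needed for tooth and palate formation, lies at chr5:37820491-37824585 on the minus strand. It measured 22.7, 20.4 and 7.67 FPKM in control, 29.4, 28.1 and 6.33 under eutherian CRX and 7.53, 9.72 and 3.13 under metatherian CRX. Libraries 1 and 2 of metatherian CRX were far below those of both other conditions and close to library 3 of the controls, so that the groups overlapped. The log2 fold change was -1.31 against control (SE 0.20, 95% interval -1.78 to -0.85, edgeR adjusted p = 0.0717). Against eutherian CRX it was -1.52 (SE 0.20, 95% interval -1.99 to -1.04), at rank 5 of 10100 by unadjusted p and with an edgeR adjusted p of 0.234, the smallest value in that comparison, which the genes ranked above it share. For eutherian CRX against control it was 0.20 (95% interval -0.26 to 0.66).

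*Msx2*, known for its part in skull and limb development, lies at chr13:53466881-53472780 on the minus strand. Its level was 7.74, 7.57 and 7.00 FPKM in control, 10.2, 9.33 and 12.2 under eutherian CRX and 12.2, 16.1 and 7.50 under metatherian CRX. Control was narrow, all eutherian CRX libraries were above it, and metatherian CRX library 3 fell within the control range. Fitted log2 fold changes were 0.65 for metatherian CRX (SE 0.26, edgeR adjusted p = 0.236) and 0.53 for eutherian CRX (SE 0.26, edgeR adjusted p = 0.663), with a difference between them of 0.13 (95% interval -0.49 to 0.74). Leaving out 1 library at a time, the first ran from 0.35 (without metatherian CRX library 2) to 0.95 (without metatherian CRX library 3). The second ran from 0.23 (without eutherian CRX library 3) to 0.73 (without eutherian CRX library 2).

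**Figure D2:**
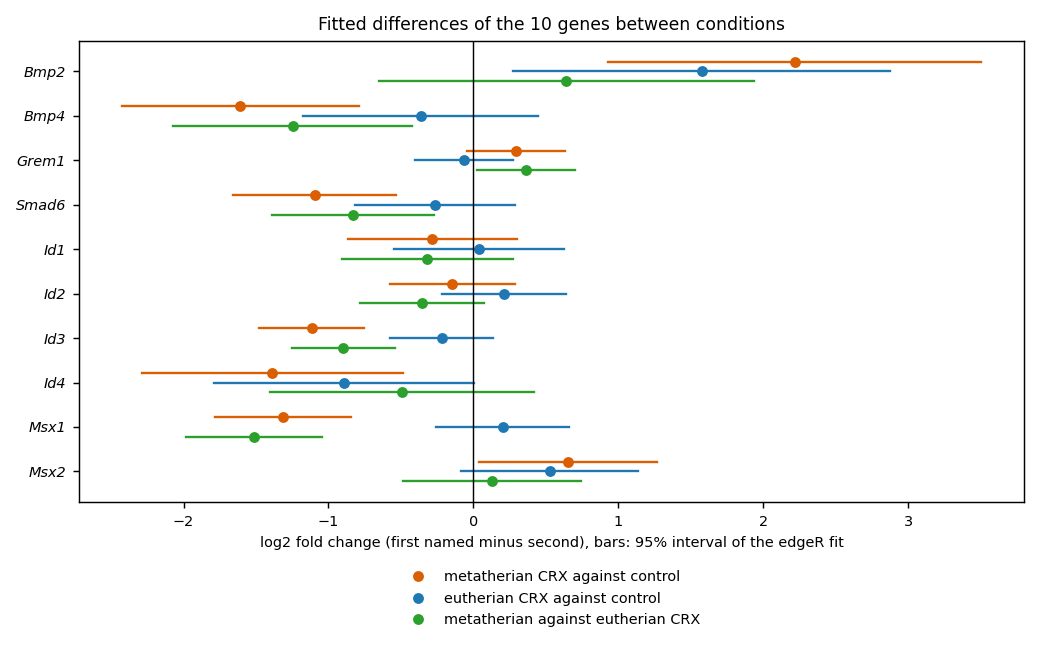
Fitted log2 fold change of each gene in the 3 comparisons (x axis, points) with its 95% interval from the edgeR fit (bars), 1 gene per row. For *Id3* and *Msx1* the intervals against control and against eutherian CRX lie below 0 and those of eutherian CRX against control include 0, while for *Bmp2* only the direct comparison includes 0.

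Per exon length, *Id3* had the highest mean level in control, 374 ± 87.1 FPKM (SD, n = 3), followed by *Grem1* at 219.7 ± 156, *Id1* at 99.4 ± 27.7, *Id2* at 67.4 ± 16.5 and *Bmp4* at 64.1 ± 40.1. The order went on with *Id4* at 19.5 ± 3.63, *Msx1* at 16.9 ± 8.10, *Smad6* at 16.5 ± 4.80, *Msx2* at 7.44 ± 0.38 and *Bmp2* at 1.75 ± 1.53 FPKM. Neighbours in this order overlapped in their ranges over the 3 libraries down to *Smad6*, while *Smad6*, *Msx2* and *Bmp2* did not overlap with each other. Under eutherian CRX all neighbours overlapped, *Id3* being highest at 331 ± 113 FPKM. Under metatherian CRX *Grem1* at 258 ± 156 FPKM stood above *Id3* at 183 ± 77.9, their ranges overlapping, and only *Id2* at 59.9 ± 5.22 and *Bmp4* at 21.3 ± 14.1 were neighbours that did not overlap.

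Library number moved with most of these genes. In 6 of the 10, library 3 differed from the mean of libraries 1 and 2 in the same direction in all 3 conditions (*Bmp2* and *Grem1* higher, *Bmp4*, *Smad6*, *Id3* and *Msx1* lower), and 37.3% of all genes tested had 1 direction in all 3. For *Bmp4*, the mean of libraries 1 and 2 was 4.91 times library 3 in control, 14.7 times under eutherian CRX and 5.00 times under metatherian CRX. For *Msx1* these ratios were 2.81, 4.54 and 2.75. Under both eutherian and metatherian CRX, library 3 was the lowest of its condition in 6 of the 8 fibroblast markers and the highest in the other 2, *Pdgfra* and *Thy1*. *Col1a1* was at 233 and 220.4 FPKM in these 2 libraries, against 1003 to 2124 in the others, and *Pdgfra* at 46.3 and 48.1, against 23.5 to 45.0. The part of these markers in the results was not tested. With all 3 libraries numbered 3 left out, an alternative chosen after seeing the data, edgeR called every member except *Id1* against control and against eutherian CRX, 9 of 10 each, beside 22.2% and 22.5% of all genes. In the same fit, 0 members were called for eutherian CRX against control, beside 2.94% of all genes. That fit rests on 2 libraries per condition and estimates the spread from the numbers 1 and 2 alone.

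**Figure D3:**
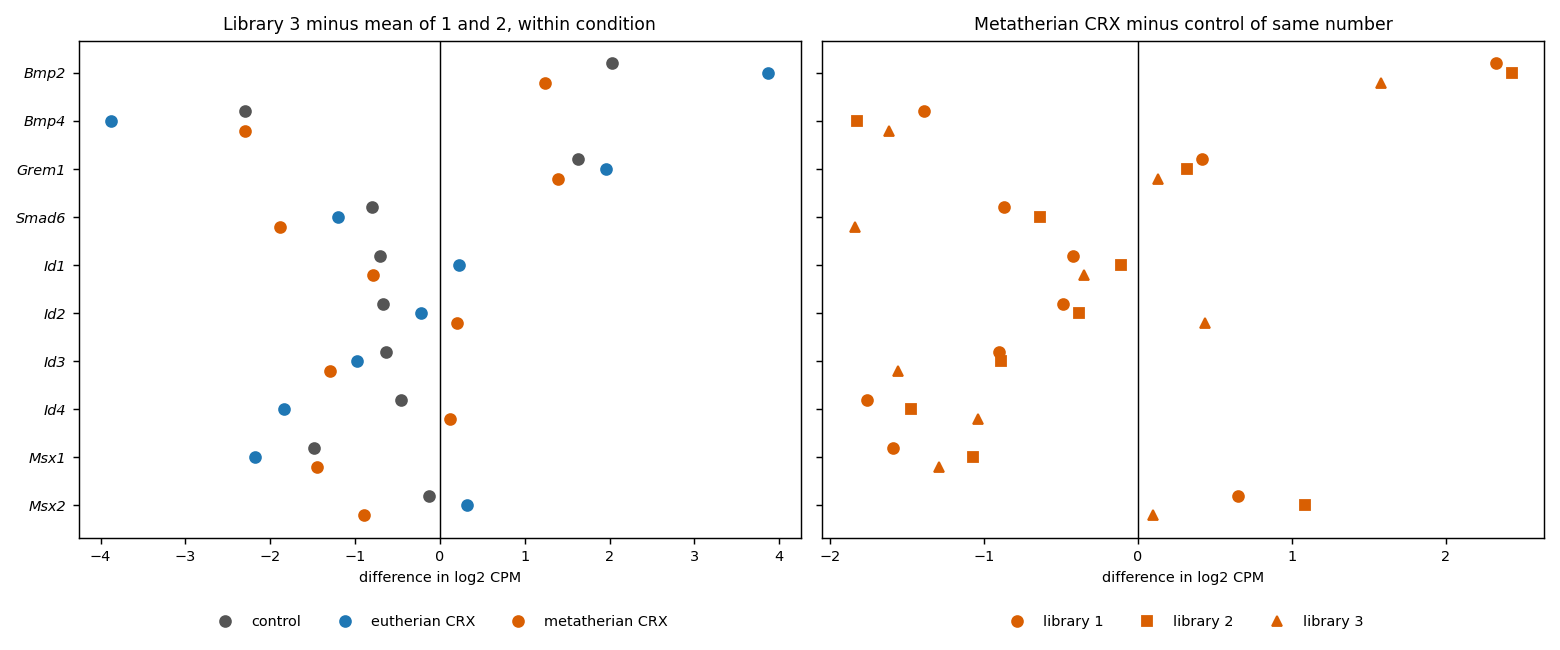
Left, log2 CPM (counts scaled to library size) of library 3 minus the mean of libraries 1 and 2 within each condition, and right, log2 CPM of each metatherian CRX library minus the control library of the same number. *Bmp4* and *Msx1* lie below 0 in all conditions on the left and for all 3 numbers on the right.

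Over the 9 libraries the log2 CPM of several members followed each other, as a description, since the 9 points share their conditions and library numbers. Pearson's r was 0.97 between *Smad6* and *Id3*, 0.94 between *Bmp4* and *Msx1* and -0.94 between *Bmp2* and *Bmp4*. Over the 6 libraries numbered 1 and 2 these were 0.91, 0.94 and -0.92. *Msx1* and *Msx2* had an r of -0.07 over 9 libraries and -0.70 over the 6, and *Id1* with *Id4* had 0.16 and 0.38. Among all genes tested, the pattern most like *Id3* was that of *Tmem109* (r = 0.994 over 9 libraries), most like *Bmp4* that of *Tln2* (0.993), most like *Msx1* that of *Med27* (0.990), and most like *Smad6* that of *BC029214* (0.993), with *Ski* next (0.988). For *Bmp2* it was *Vps33a* (0.985), for *Grem1* *Ahnak2* (0.989), for *Id4* *Plcb4* (0.984), for *Id2* *Mrpl18* (0.961), for *Id1* *Evc2* (0.951) and for *Msx2* *Cda* (0.922).

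The rest of the pathway was taken from a list of 69 other ligands, receptors, SMADs, modulators, targets and helix-loop-helix partners, of which 44 passed the filter. Against control, metatherian CRX libraries differed at an unadjusted p under 0.05 in 14 of the 44, 3 higher and 11 lower, beside 19.5% of all genes. Eutherian CRX libraries did so in 4, 1 higher and 3 lower, a share close to the 8.56% of all genes. Between the orthologues there were 9, 3 higher and 6 lower under metatherian CRX, beside 11.5% of all genes. Groups of libraries did not overlap in 8, 3 and 6 of the 44, in the same order, beside 23.3%, 14% and 11.5% of all genes. No gene of the list was called at an adjusted p under 0.05 in any comparison by edgeR's quasi-likelihood test, and DESeq2 called 6, 1 and 2, beside 9.94%, 3.3% and 3.14% of all genes. Without eutherian CRX library 3, edgeR called 6, 0 and 3, beside 8.83%, 0% and 3.47%, and without metatherian CRX library 3 it called 4, 0 and 1, beside 4.92%, 1.16% and 1.48%. Each other fit with 1 library left out called no gene of the list. By role, metatherian CRX against control had 5 of 11 receptors and co-receptors, 4 of 12 extracellular modulators, 2 of 4 targets, 1 of 2 ligands, 1 of 10 SMADs and regulators and 1 of 5 partners at an unadjusted p under 0.05, with few genes in each role and 19.5% over all genes. The ligand there was *Gdf6*, and 1 of the targets was *Hey1*. Both, like *Bmp5* between the orthologues, passed the minimum of 2 FPKM only through groups where they were higher. Counts that hold them are a description and not a test.

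Among the receptors, *Rgma*, a BMP co-receptor, measured 6.37, 6.57 and 9.49 FPKM in control, 5.10, 5.60 and 8.98 under eutherian CRX and 3.50, 4.84 and 4.87 under metatherian CRX. Its metatherian CRX libraries lay below all others, with log2 fold changes of -0.75 against control (SE 0.15, edgeR adjusted p = 0.0873) and -0.54 against eutherian CRX (SE 0.15, edgeR adjusted p = 0.309). *Acvrl1*, a type I receptor of endothelium among other cells, measured 8.07, 9.69 and 7.83 FPKM in control and 4.02, 4.13 and 6.45 under metatherian CRX, a log2 fold change of -0.84 (SE 0.18, edgeR adjusted p = 0.0995). Its groups did not overlap, which held for 23.3% of all genes. *Bambi*, a pseudoreceptor without kinase activity, measured 3.82, 3.49 and 4.14 FPKM in control and 5.63, 5.83 and 4.81 under eutherian CRX, all above control, a log2 fold change of 0.50 (SE 0.15, edgeR adjusted p = 0.401). It was 0.37 for metatherian CRX (SE 0.15, edgeR adjusted p = 0.255), and for *Acvrl1* it was -0.35 for eutherian CRX (SE 0.18, edgeR adjusted p = 0.69).

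The ligand *Gdf6* measured 2.89, 3.25 and 1.97 FPKM in control, 2.68, 2.93 and 2.00 under eutherian CRX and 0.994, 1.17 and 1.68 under metatherian CRX. The last group lay below both others, with log2 fold changes of -1.05 (SE 0.29) and -0.97 (SE 0.29). *Bmp5*, another ligand, was at 0.616, 0.759 and 2.31 FPKM under eutherian CRX and 1.53, 2.25 and 3.13 under metatherian CRX, overlapping groups with a log2 fold change of 1.12 (SE 0.28). It passed the minimum of 2 FPKM through metatherian CRX alone, where it was highest, so no test is read from that value. *Gdf6* passed through control and eutherian CRX, its metatherian CRX mean being 1.28 FPKM, and the same holds for it.

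Of the antagonists, *Fst*, which encodes the activin and BMP binding protein follistatin, measured 128, 167 and 50.2 FPKM in control and 93.4, 94.5 and 19.6 under eutherian CRX, a log2 fold change of -0.83 (SE 0.32, edgeR adjusted p = 0.529). Under metatherian CRX it was at 61.3, 55.5 and 37.3 FPKM, with a log2 fold change of -0.98 (SE 0.32, edgeR adjusted p = 0.176). Control library 3 of *Fst* lay below libraries 1 and 2 of both other conditions, so the groups overlapped. Of the targets, the basic helix-loop-helix gene *Hey1* had log2 fold changes of -0.75 for metatherian CRX (SE 0.23, edgeR adjusted p = 0.161) and -0.56 for eutherian CRX (SE 0.23, edgeR adjusted p = 0.573). *Hey1* had a metatherian CRX mean of 1.91 FPKM, under the minimum, so that it too passed through the groups where it was higher. For *Atoh8*, of the same class, they were -0.96 (SE 0.25, edgeR adjusted p = 0.121) and -0.28 (SE 0.25, edgeR adjusted p = 0.83). *Twist1*, a mesenchymal partner of E proteins, measured 64.1, 70.6 and 24.3 FPKM under eutherian CRX and 31.5, 33.7 and 22.4 under metatherian CRX, a log2 fold change of -0.76 (SE 0.21, edgeR adjusted p = 0.307) with overlapping groups, and against control it was -0.58 for metatherian CRX (SE 0.20, edgeR adjusted p = 0.197).

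**Figure D4:**
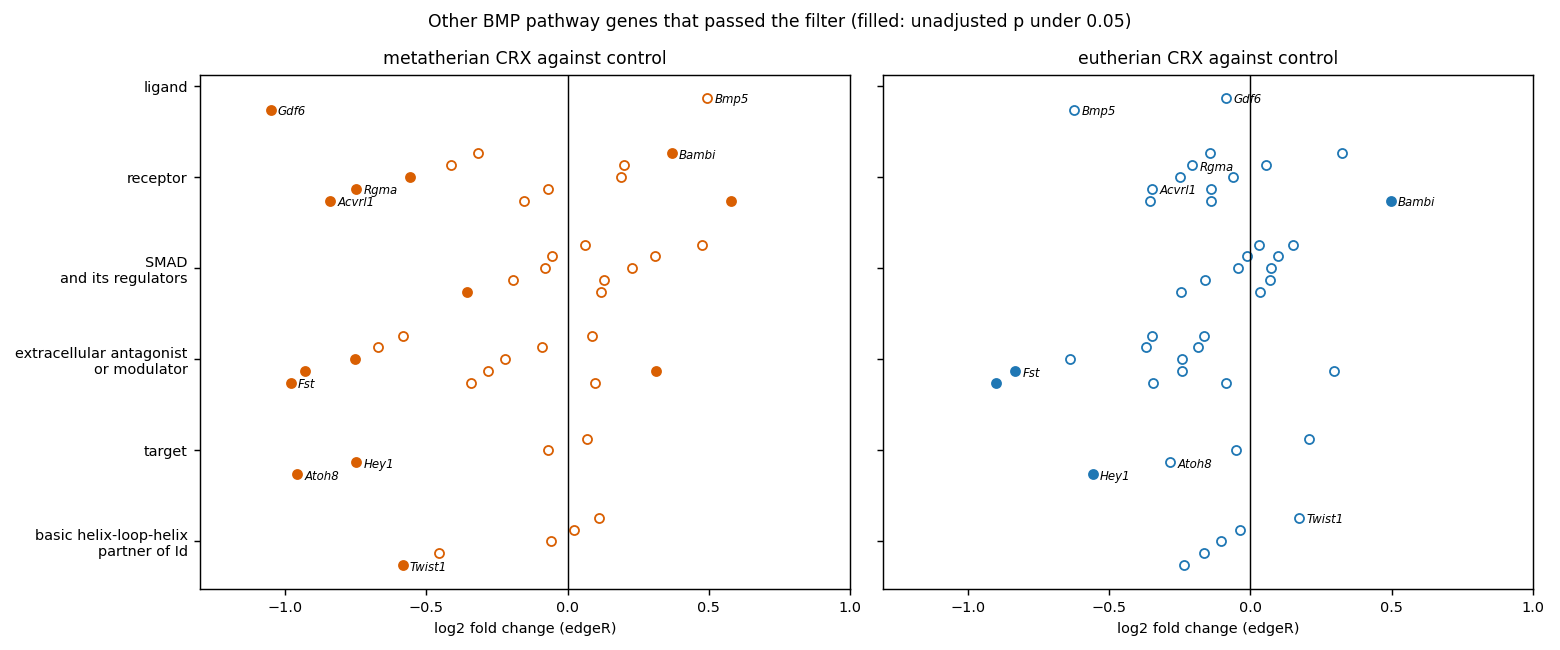
Log2 fold change from edgeR (x axis) of the 44 other BMP pathway genes that passed the filter, by role (y axis), for metatherian (left) and eutherian CRX (right) against control, filled where the unadjusted p was under 0.05. There are 14 filled points on the left, 11 of them below 0, and 4 on the right, and none passed the adjusted threshold.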

How the data were processed

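RNA was measured in 9 libraries, 3 per condition. Per the study's methods and the labels, the authors aligned reads to mm10 (GRCm38) with STAR and deposited raw featureCounts counts per gene. The annotation release, strand option and treatment of multi-mapping reads are not given in the sources used here. The labels place a recovery of 48 h after the puromycin. The methods place the 48 h before it, with an overnight culture after the drug was washed off.

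Here TMM factors (0.961 to 1.10) scaled the CPM and the FPKM, the latter with the exon lengths in the table. Of 22068 genes, 14599 passed filterByExpr and 10100 also exceeded a mean of 2 FPKM in 1 condition or more. edgeR 4.0.16 (R 4.3.3) fitted all 9 libraries by quasi-likelihood, with the library number as a replicate block since the study states that samples were prepared together and linked in its analysis. Standard errors are the log2 fold change divided by the root of F. Adjusted p-values (Benjamini-Hochberg) run over all genes tested. The scripts were tested on simulated counts. Promoters came from RefSeq and overlaps from GENCODE.

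The members, the pathway list, markers and letter strings were chosen with earlier results of these data known. The text names all members and, of the other pathway genes, any called plus the 4 with the smallest p per comparison, and the genes most like each member. A gene that this rule selects is not reported here. Alternatives were no block, RLE or upper-quartile factors, DESeq2 1.42.0, other filters, 6 libraries only and each library left out.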

Additional observations from a re-analysis of the deposited data

How the results depend on the processing

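The counts of called members and of other pathway genes were 0 in each comparison and stayed at 0 with no replicate block, with RLE or upper-quartile factors and with other filters. DESeq2 called 6, 1 and 4 members and 6, 1 and 2 other pathway genes for metatherian CRX against control, eutherian CRX against control and metatherian against eutherian CRX, beside 9.94%, 3.3% and 3.14% of all genes. In a fit of only the 6 libraries compared, 5 members and 1 other pathway gene were called for metatherian CRX against control, beside 3.97% of all genes. Leaving out 1 library at a time gave 0 to 6 members and 0 to 6 other genes for metatherian CRX against control, 0 and 0 for eutherian CRX, and 0 to 4 members and 0 to 3 others between the orthologues, beside 0% to 8.83%, 0% to 1.16% and 0% to 3.47% of all genes. Leaving out the libraries numbered 3, chosen after seeing the data, gave 9, 0 and 9 members and 13, 3 and 14 other genes, beside 22.2%, 2.94% and 22.5% of all genes. Of the members' log2 fold changes under all alternatives, 445 kept direction and side of the threshold, 50 kept direction and passed the threshold, and 15 changed sign, all with edgeR adjusted p-values above the threshold. The sign changed with no replicate block for *Grem1* (0.0286) and *Id1* (-0.0324) under eutherian CRX and for *Bmp2* (-0.32) between the orthologues. Without single libraries it changed for *Id2* under metatherian CRX (-0.36 to 0.0163), for *Bmp4* (-0.70 to 0.0914), *Grem1* (-0.21 to 0.0522), *Smad6* (-0.40 to 0.00068) and *Id1* (-0.31 to 0.32) under eutherian CRX, and for *Id1* (-0.61 to 0.0316) and *Msx2* (-0.16 to 0.44) between the orthologues. Without the libraries numbered 3 it changed for *Bmp4* (0.0848) and *Id1* (-0.30) under eutherian CRX and for *Id1* (0.0460) between the orthologues. The cause was not tested.

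The correlation of deviations from the group means was over 0.1 in 8 of 9 pairs of libraries with the same number (0.0034 to 0.75). It was over 0.1 in 5 of 18 pairs with different numbers (-0.73 to 0.72). The ranges overlap, and deviations from a shared group mean are tied to each other, so the numbers are not shown to mark pairs. With no replicate block, 3, 0 and 1 members had an unadjusted p under 0.05. With 3 libraries per condition, intervals were wide, and the counts behind each member's value (at least 127) limit precision less than the spread between libraries.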
